A study of Mus musculus with 24 samples.

Results

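Nuclear genes for the oxidative phosphorylation machinery were compared between control and Hira conditional knockout (CKO) tibialis anterior, the fast muscle at the front of the shin. Members were all array probes whose platform gene symbol began with Ndufa, Ndufb, Ndufc, Ndufs, Ndufv, Uqcr, Atp5 or Cox4 to Cox8, or was Sdha, Sdhb, Sdhc, Sdhd, Cyc1, Cycs or Cyct. The rule found 88 of 26423 probes and 78 of 17742 named genes. They were 32 genes of complex I, 4 of complex II, 6 of complex III, 17 of complex IV, 11 of complex V and 7 assembly or coupling factors. Cox4nb, now Emc8 and a gene of the endoplasmic reticulum membrane complex, matched by its prefix and was counted apart. No probe was named Cyc1, Cycs or Cyct, so cytochrome c and cytochrome c1 were not analysed here.

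Both groups were 6 weeks old and of the C57BL6/J;129S1/SvImJ background. The 4 controls were Myf6 cre/+; Hira flox/+ and the 4 Hira CKO animals were Myf6 cre/+; Hira flox/-. Myf6 is expressed in differentiating and mature muscle fibres, and the HIRA protein is a histone chaperone that places H3.3 into chromatin. Controls therefore carried the same cre and a floxed allele. In cells without cre the control kept an intact Hira allele where Hira CKO had the null one. Where cre removed the floxed allele, the control was left with only its + allele and Hira CKO with no intact allele. Total RNA of each animal was labelled with Cy5 and hybridised on 3 arrays, giving 24 arrays, and the animal mean was the replicate. The labels gave no sex and no array batch, so batch and group cannot be told apart.

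The oxidative phosphorylation system sits in the inner mitochondrial membrane. Complex I takes electrons from NADH, complex II takes them from succinate, and both pass them to coenzyme Q. Complex III moves them on to cytochrome c, complex IV hands them to oxygen, and complex V uses the resulting proton gradient to make ATP. Subunits come from nuclear genes, with a small core set encoded by mitochondrial DNA, and dedicated factors assemble each complex. Several complex IV subunits exist as a ubiquitous and a heart and skeletal muscle isoform. The tibialis anterior of the mouse consists mainly of fast fibres.

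Values are background-subtracted, normalised intensities without a detection call, and a level at one probe is not comparable with that at another. Differences are log2, Hira CKO minus control, after adding 16 to the intensity. A gene was called when the limma adjusted p (Benjamini-Hochberg over all 26423 probes) was below 0.05, and a gene with several probes was read at its brightest. Array medians lay between 431.5 and 433.5. The member probes were bright: 55 of 78 genes lay above the 95th percentile of mean intensity and 37 above the 99th, and 3 lay at or below the 30th. The median SD of members was 0.113 log2 between the 3 arrays of an animal and 0.125 between animals of a group, against 0.139 between animals over all genes. Hira itself did not read lower in Hira CKO. Its probe, whose place relative to the floxed exons is not known here, read 569, 472, 467 and 473 in controls and 614, 553, 524 and 543 in Hira CKO, a difference of 0.17 (SE 0.087, limma adjusted p = 0.193). The libraries labelled Hira CKO are named by that label throughout. In whole muscle, fewer cells of a type and less RNA per cell cannot be told apart.

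Oxidative phosphorylation genes did not move as a block. Of the 78 genes, 9 rose and 10 fell in Hira CKO, 24.4%, where 21.2% of all genes were called, 11.0% higher and 10.2% lower. The share of members called was thus near that of the array. With all 24 arrays and the animal as a random block, 14 rose and 16 fell, and without Hira CKO 4 only 6 fell. The median difference over members was 0.0022 log2 with quartiles of −0.16 and 0.15, and over all genes it was 0.01 with quartiles of −0.16 and 0.17. Exactly 39 genes lay above 0 and 39 below. The range ran from −0.96 for Ndufb9 to 0.72 for Cox7a1, and 0 of the 19 called genes reached a 2-fold change at the brightest probe. Of the 88 probes, 22 were called, against 20.6% of all probes. The 8 animals separated completely by group for 19 of 78 genes, against 25.3% of all genes. Those were 16 of the called genes plus Uqcr11, Cox5b and Cox8c, which were not called and were picked out here after their values were seen. Among the 55 members above the 95th percentile, 14 were called (25.5%), against 23.1% of all genes that bright.

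**Figure D1:**
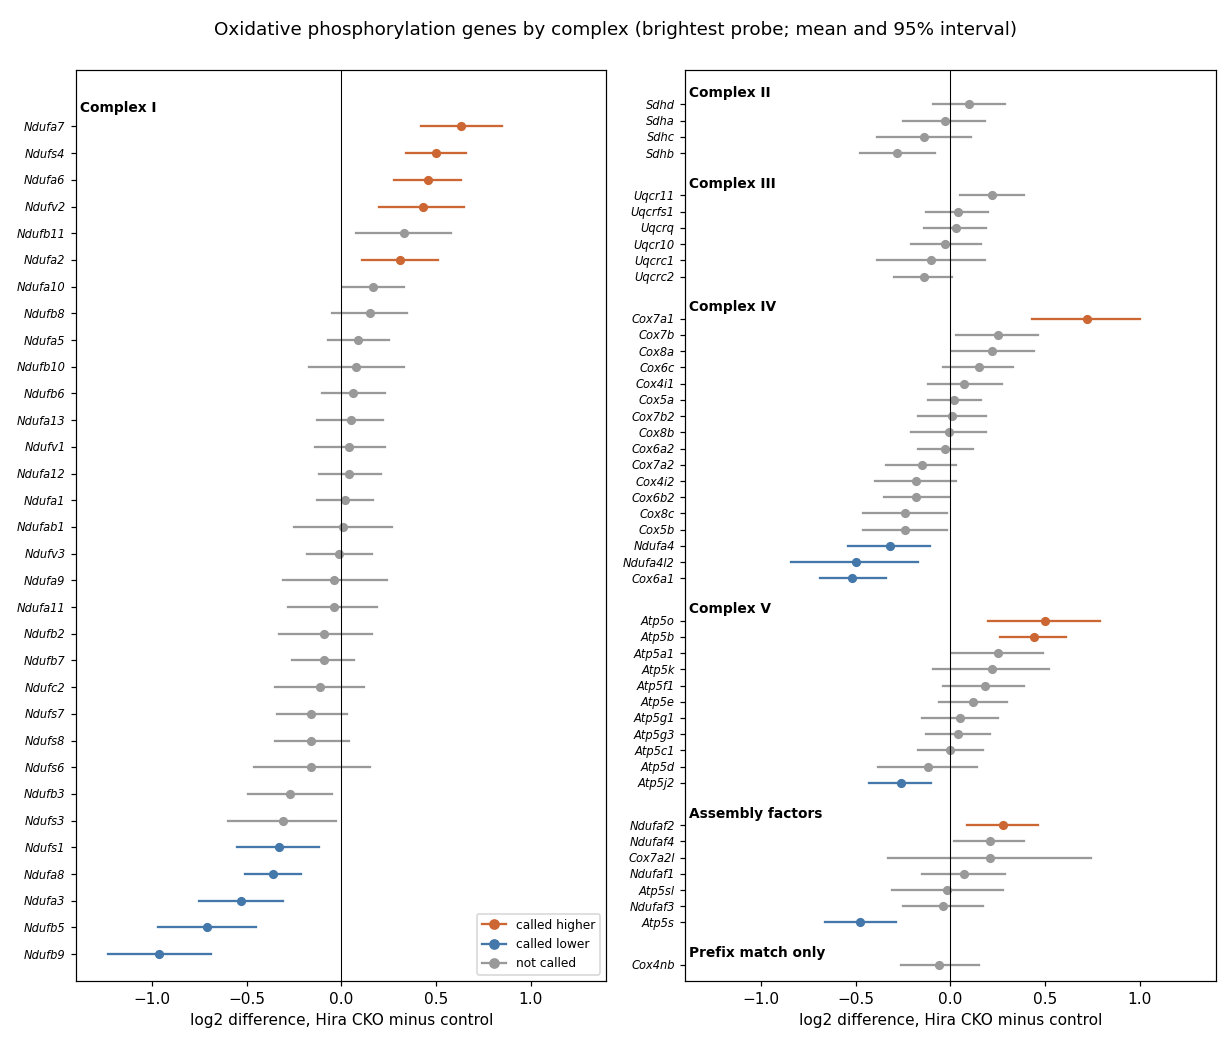
Log2 difference (Hira CKO minus control) at the brightest probe of each of the 78 genes, grouped by complex; points are means, bars are 95% intervals of single genes, and colour marks genes called after adjustment over all probes. Calls lie on both sides of 0 in complexes I, IV and V, from −0.96 for Ndufb9 to 0.72 for Cox7a1, and none lie in complexes II and III; some grey bars miss 0 because the interval is not adjusted.

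Complex I held 10 of the 19 calls, 5 higher and 5 lower among 32 genes (31.2%), with a median difference of 0.0017. The largest fall was Ndufb9, an accessory subunit of the membrane arm, which was 1.94-fold lower. Its probe read 37598, 40706, 50494 and 46907 in the 4 controls and 23846, 25531, 22125 and 18954 in the 4 Hira CKO animals (−0.96, SE 0.12, limma adjusted p = 0.000619). The lowest control stood well above the highest Hira CKO animal. Ndufb5, another membrane arm subunit, read 39653, 39543, 53301 and 44321 in controls and 24692, 29144, 29938 and 24308 in Hira CKO (−0.71, SE 0.12, adjusted p = 0.00263). Again no Hira CKO animal reached the lowest control. Ndufa3, also of the membrane arm, read 60094, 60791, 68530 and 64013 against 48703, 48388, 37569 and 41359 (−0.53, SE 0.098, adjusted p = 0.00489). Ndufa8, a membrane arm subunit on the intermembrane side, read 70306, 73086, 75953 and 69083 against 58103, 57248, 53555 and 55430 (−0.36, SE 0.067, adjusted p = 0.00501). The animals of the groups did not overlap for either gene. Each of these 4 calls held in all 8 leave-one-out fits, in which each animal in turn was dropped.

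The rises in complex I were in subunits of the matrix arm, where NADH is oxidised. Ndufa7, an accessory subunit, read 12698, 14018, 16026 and 15107 in controls and 21123, 24587, 20475 and 23610 in Hira CKO (0.63, SE 0.096, limma adjusted p = 0.0016). All 4 Hira CKO animals were above every control, and the mean rose 1.55-fold. Ndufa6, an accessory subunit of the LYR family, read 91281, 81318, 80991 and 80205 against 123984, 108642, 107765 and 119667 (0.46, SE 0.078, adjusted p = 0.00318). Control 1 stood apart from the other controls but stayed below every Hira CKO animal. Ndufv2, a core subunit that carries an iron-sulphur cluster, read 894, 1001, 827 and 814 against 1189, 1297, 1015 and 1275 (0.43, SE 0.1, adjusted p = 0.0152). The gap between the groups was narrow, from 1001 to 1015. Ndufa2, an accessory subunit with a thioredoxin-like fold, read 17692, 14608, 17177 and 19430 against 20333, 21551, 21100 and 22287 (0.31, SE 0.091, adjusted p = 0.0363). Its call was lost in 7 of 8 leave-one-out fits and kept only without control 4. Ndufs1, the largest core subunit and a carrier of iron-sulphur clusters, was the exception in the matrix arm. It fell from 32650, 28828, 32937 and 30841 to 23771, 25548, 28840 and 21665 (−0.33, SE 0.096, adjusted p = 0.0351). Hira CKO 3, at 28840, lay just above the lowest control, at 28828, and the call was kept only without control 2 or without Hira CKO 3, so that 6 of the 8 fits lost it.

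Ndufs4, an accessory subunit needed for a stable NADH-oxidising module, was measured by a pair of probes that moved in opposite directions. The brighter probe read 99449, 99469, 88099 and 92089 in controls and 132697, 128754, 137036 and 133805 in Hira CKO (0.50, SE 0.072, limma adjusted p = 0.00125). The dimmer probe read 25661, 30835, 35961 and 32842 in controls and 9345, 13217, 11900 and 7860 in Hira CKO (−1.60, SE 0.17, adjusted p = 0.000228). The groups did not overlap at either probe, and both calls held in all 8 leave-one-out fits. The dimmer probe's fall of 3.03-fold was the largest change of any member probe. Which part of the transcript each probe reads is not known here, so the direction for Ndufs4 depends on the probe and its place among the rises rests on the rule of the brightest probe. The bases before the start of Ndufs4 and of Ndufb5, a gene that fell at its 1 probe, are shown as RefSeq windows (GRCm38.p6), 250 bases upstream on the gene's strand. Ndufs4 is at chr13:114388095-114388344 on the minus strand and Ndufb5 at chr3:32736813-32737062 on the plus strand. Capitals would mark motif matches, and neither window held a match to the motifs given further on.
Ndufs4: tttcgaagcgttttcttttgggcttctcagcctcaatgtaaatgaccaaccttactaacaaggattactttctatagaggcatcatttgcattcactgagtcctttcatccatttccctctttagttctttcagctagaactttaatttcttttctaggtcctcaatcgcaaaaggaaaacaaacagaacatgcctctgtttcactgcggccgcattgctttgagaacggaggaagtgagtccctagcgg
Ndufb5: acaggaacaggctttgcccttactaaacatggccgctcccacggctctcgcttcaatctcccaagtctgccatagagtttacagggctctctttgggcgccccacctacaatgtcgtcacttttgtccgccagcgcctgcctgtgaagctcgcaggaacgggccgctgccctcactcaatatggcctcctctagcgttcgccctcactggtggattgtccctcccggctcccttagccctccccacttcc

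Split by arm, the 15 matrix arm genes of complex I held 5 rises and 1 fall, and the 16 membrane arm genes held 0 rises and 4 falls. Ndufab1, the acyl carrier protein present in both arms, was counted apart (0.01). Among calls that held in all 8 leave-one-out fits, the matrix arm had 4 rises and 0 falls and the membrane arm 0 rises and 4 falls. The medians over all genes of an arm stayed near 0, at 0.04 for the matrix arm and −0.06 for the membrane arm. The split was made after the values were seen and was not tested. It also depends on names and probes: Ndufb1, a membrane arm gene that the platform listed under an older symbol and the rule missed, rose (0.38, limma adjusted p = 0.0121), and Ndufs4 fell at its dimmer probe. By role, the 6 core genes held 1 rise and 1 fall and the 26 accessory genes 4 rises and 4 falls. By symbol, the 13 Ndufa genes held 3 rises and 2 falls, the 9 Ndufb genes 0 and 2, the 6 Ndufs genes 1 and 1, and the 3 Ndufv genes 1 and 0. Ndufc2 was not called (−0.11). The 22 complex I genes that were not called ranged from −0.31 to 0.33. The brightest complex I probe, that of Ndufa13, which is also known as Grim19, read 167849 to 194695 in controls and 173713 to 196225 in Hira CKO (0.05, SE 0.077). Ndufa11 and Ndufv3, with a further 1 and 2 probes, had no probe called, and their differences ranged from −0.34 to −0.01.

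Complexes II and III had no called gene. Sdha, the flavoprotein subunit of succinate dehydrogenase, read 82323, 70567, 90684 and 76349 in controls and 70499, 80660, 83785 and 76267 in Hira CKO (−0.03, SE 0.095). Sdhb, the iron-sulphur subunit, was nearest to a call, at 141088, 162625, 166405 and 152119 against 135461, 142284, 118858 and 116985 (−0.28, SE 0.091, limma adjusted p = 0.0544). Hira CKO 2 lay above the lowest control, so the groups overlapped. The membrane anchors Sdhc (−0.14, SE 0.11) and Sdhd (0.10, SE 0.086) overlapped too. In complex III, the 6 genes ranged from −0.14 to 0.22 around a median of 0.00024. Uqcrc2, a core protein of the complex and its brightest probe, read 156750, 154350, 156747 and 148219 against 148695, 143622, 135890 and 129765 (−0.14, SE 0.07, adjusted p = 0.173). Uqcr11, a small subunit, read 21243, 20530, 24812 and 23101 against 26811, 26006, 26014 and 25554 (0.22, SE 0.077, adjusted p = 0.0686). Its groups did not overlap, although it was not called. A p above the threshold does not show that the levels were equal.

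In complex IV, 1 gene rose and 3 fell among 17 (23.5%), with a median of −0.03. The 4 calls became 9 with all 24 arrays and the animal as a random block, and 2 without Hira CKO 2, Hira CKO 4, control 2 or control 4. The rise was Cox7a1, the heart and skeletal muscle isoform of subunit VIIa, and the clearest fall was Cox6a1, the ubiquitous isoform of subunit VIa. Cox7a1 read 20364, 22910, 26768 and 30271 in controls and 44124, 45141, 37308 and 37150 in Hira CKO (0.72, SE 0.13, limma adjusted p = 0.00424). All Hira CKO animals were above all controls, and the mean rose 1.64-fold. Cox6a1 read 20093, 18455, 19370 and 19820 against 14046, 14261, 11954 and 14237 (−0.52, SE 0.079, adjusted p = 0.00171). The groups were separated by a wide gap, and the mean was 30.2% lower. Both calls held in all 8 leave-one-out fits. Their upstream windows are shown because these isoform genes moved in opposite directions. Cox7a1 is at chr7:30183921-30184170 on the plus strand and Cox6a1 at chr5:115348959-115349208 on the minus strand, with matches to the searched motifs in capitals.
Cox7a1: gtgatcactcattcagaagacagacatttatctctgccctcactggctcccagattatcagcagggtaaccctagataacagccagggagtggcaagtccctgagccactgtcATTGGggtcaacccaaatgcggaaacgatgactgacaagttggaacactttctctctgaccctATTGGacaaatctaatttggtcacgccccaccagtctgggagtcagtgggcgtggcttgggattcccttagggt
Cox6a1: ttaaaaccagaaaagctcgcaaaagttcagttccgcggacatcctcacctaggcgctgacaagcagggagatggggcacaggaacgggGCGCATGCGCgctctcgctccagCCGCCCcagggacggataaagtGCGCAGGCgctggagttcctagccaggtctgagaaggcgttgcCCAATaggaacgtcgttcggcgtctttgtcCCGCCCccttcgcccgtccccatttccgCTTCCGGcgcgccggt

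The partner isoforms were not called at their brightest probes. Cox6a2, the muscle isoform of subunit VIa, read 153235, 144786, 161207 and 150454 in controls and 154350, 147600, 145106 and 151642 in Hira CKO (−0.03, SE 0.067), and 0.25 at its dimmer probe (limma adjusted p = 0.0732). Cox7a2, the ubiquitous isoform of subunit VIIa, read 104297, 115356, 127291 and 120369 against 99478, 111624, 102507 and 106066 at its brighter probe (−0.15, SE 0.081, adjusted p = 0.208). The dimmer Cox7a2 probe rose 2.46-fold. It read 1474, 2259, 2341 and 2052 in controls and 4888, 5181, 4699 and 4944 in Hira CKO (1.30, SE 0.13, adjusted p = 0.000177), with no overlap, and held its call in all 8 leave-one-out fits. The upstream window of Cox7a2 lies at chr9:79759854-79760103 on the minus strand, and is given because the direction of the gene differed by probe.
Cox7a2: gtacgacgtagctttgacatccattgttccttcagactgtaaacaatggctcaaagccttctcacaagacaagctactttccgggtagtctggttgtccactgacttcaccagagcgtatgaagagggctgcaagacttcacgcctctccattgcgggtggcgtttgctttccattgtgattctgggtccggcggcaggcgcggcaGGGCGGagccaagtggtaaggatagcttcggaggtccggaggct

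**Figure D2:**
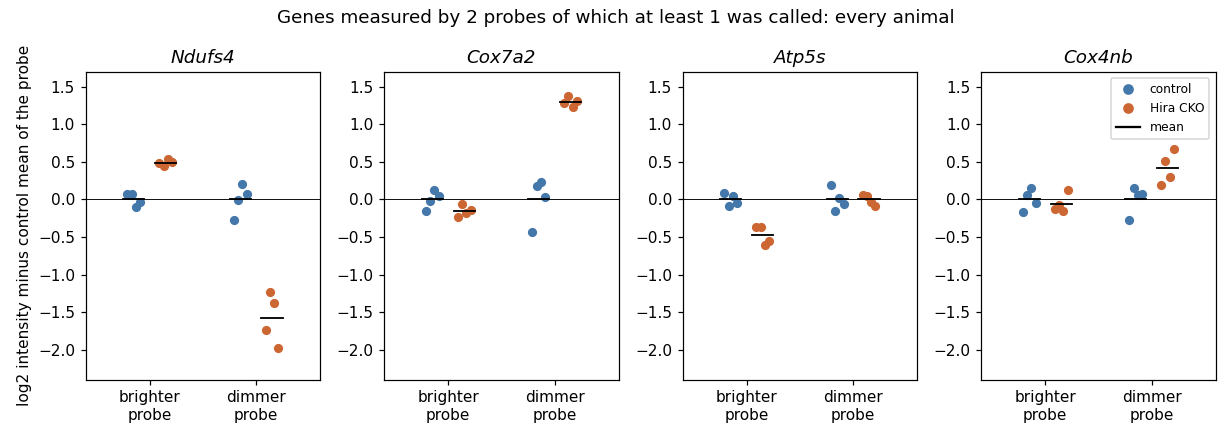
Log2 intensity of each animal minus the control mean of the same probe, for the 4 genes with a pair of probes of which at least 1 was called; points are 4 control and 4 Hira CKO animals and lines are means. The probes of Ndufs4 part (0.50 and −1.60), Cox7a2 moves at its dimmer probe (1.30) and Atp5s at its brighter probe (−0.48).

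Other isoform sets of complex IV held no call. Cox4i1, the widely expressed isoform of subunit IV, differed by 0.07 (SE 0.088), and its dim counterpart Cox4i2, known for a role in hypoxia, by −0.18 (SE 0.096). Cox8b, the muscle isoform of subunit VIII, differed by −0.01 (SE 0.092) and the ubiquitous Cox8a by 0.22 (SE 0.098). The testis isoform Cox8c read 112, 120, 110 and 106 in controls and 100, 93, 105 and 75 in Hira CKO (−0.24, SE 0.098, limma adjusted p = 0.114), at the dim end of the array. Cox6b2, also a testis isoform, differed by −0.18 and 0.15 at its 2 probes, so its sign depended on the probe. Cox7a2l, a supercomplex factor counted with the assembly factors, differed by 0.21 with an SE of 0.24, the widest of any gene at its brightest probe. Cox6b1, the ubiquitous partner of Cox6b2, was not analysed here. Cox7b2, read at a dim probe (percentile 28.2), differed by 0.01, and all 13 complex IV genes that were not called ranged from −0.24 to 0.25. Cox5a, which lies on the matrix side and was the brightest complex IV probe, read 229333 to 247197 in Hira CKO and 231197 to 243526 in controls (0.02, SE 0.065). Cox5b, its zinc-binding neighbour, read 2584, 2746, 2901 and 2440 against 2373, 2396, 2419 and 1892 (−0.24, SE 0.098, adjusted p = 0.115). Those groups did not overlap, but the gene was not called.

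Ndufa4, once assigned to complex I and now known as a subunit of complex IV, fell from 182826, 168568, 144992 and 172131 to 146481, 125673, 140588 and 122964 (−0.32, SE 0.097, limma adjusted p = 0.0418). Hira CKO 1 lay above the lowest control, so the groups overlapped. Its paralogue Ndufa4l2, which is induced by hypoxia, fell from 244, 330, 281 and 313 to 232, 216, 154 and 220 (−0.50, SE 0.15, adjusted p = 0.0398). The groups were just apart, from 232 to 244. Each of these calls was lost in 6 of 8 leave-one-out fits, Ndufa4 being kept only without control 3 or Hira CKO 1 and Ndufa4l2 only without control 1 or Hira CKO 1.

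In complex V, 2 genes rose and 1 fell among 11 (27.3%), with a median of 0.12. The 3 calls became 1 without Hira CKO 1, Hira CKO 2, Hira CKO 3 or control 2. Atp5b, the catalytic beta subunit, read 19673, 23031, 21507 and 19572 in controls and 28841, 29855, 26975 and 27646 in Hira CKO (0.44, SE 0.079, limma adjusted p = 0.00435). No animal of one group reached the other, and the call held in all 8 leave-one-out fits. Its size varied with the array repeat, at 0.25 with only repeat 1 (limma adjusted p = 0.234, not called), 0.44 with repeat 2 and 0.62 with repeat 3. Atp5o, the peripheral stalk subunit that confers oligomycin sensitivity, read 1145, 868, 1036 and 866 against 1648, 1374, 1432 and 1114 (0.50, SE 0.13, adjusted p = 0.0251). Hira CKO 4 lay below control 1, and the call was lost in 5 of the 8 fits and kept only without control 1, control 3 or Hira CKO 4. Atp5j2, subunit f of the membrane part, fell from 47430, 51506, 53817 and 48709 to 42873, 43671, 42215 and 38920 (−0.26, SE 0.074, adjusted p = 0.0307). Its groups did not overlap, yet the call was lost in 6 of the 8 fits and kept only without control 1 or control 4. Atp5a1, the alpha subunit that forms the catalytic head with Atp5b, read 75308 to 97364 in controls and 95160 to 118741 in Hira CKO and was not called (0.25, SE 0.11, adjusted p = 0.128). Genes for the c-ring were not called. Atp5g1 differed by 0.05 and 0.01 at its probes, and Atp5g3, the brightest complex V probe, by 0.04 (SE 0.078), and Atp5g2 was not analysed here. The remaining genes of the head, stalk and membrane part, Atp5c1, Atp5d, Atp5e, Atp5f1 and Atp5k, ranged from −0.12 to 0.22. The lowest, Atp5d, was read at a dim probe, at percentile 25.2 of mean intensity.

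Among the 7 assembly or coupling factors, 1 rose and 1 fell, with a median of 0.07. The 2 calls became 1 without control 1, control 2, control 4, Hira CKO 1 or Hira CKO 2. Ndufaf2, which assists a late step of complex I assembly, read 5284, 5957, 6284 and 5392 in controls and 7059, 6874, 6402 and 7357 in Hira CKO (0.28, SE 0.083, limma adjusted p = 0.0412). The groups did not overlap, and the call was lost in 6 of 8 leave-one-out fits and kept only without control 3 or Hira CKO 3. Atp5s, a coupling factor now named Dmac2l, fell at its brighter probe from 5686, 5053, 5560 and 5189 to 4154, 4142, 3513 and 3663 (−0.48, SE 0.083, adjusted p = 0.00351). Its dimmer probe read 3032, 2386, 2679 and 2529 against 2766, 2737, 2593 and 2501, with means of 2657 and 2649, so the fall was not seen there. Ndufaf1, Ndufaf3, Ndufaf4 and Atp5sl were not called and ranged from −0.04 to 0.21. For Cox4nb the brighter probe differed by −0.06 and the dimmer by 0.41 (adjusted p = 0.0411, lost in 6 of the 8 fits). With current symbols the rule would also have taken Ndufaf5 (0.60, adjusted p = 0.00356) and Ndufaf6 (0.65, adjusted p = 0.000399), both complex I assembly factors and both higher, besides Ndufb1. It would have added Ndufaf7 (−0.16), Ndufaf8 (0.07) and Atp5mpl (0.29) as genes not called, and dropped Atp5s, Atp5sl and Cox4nb.

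**Figure D3:**
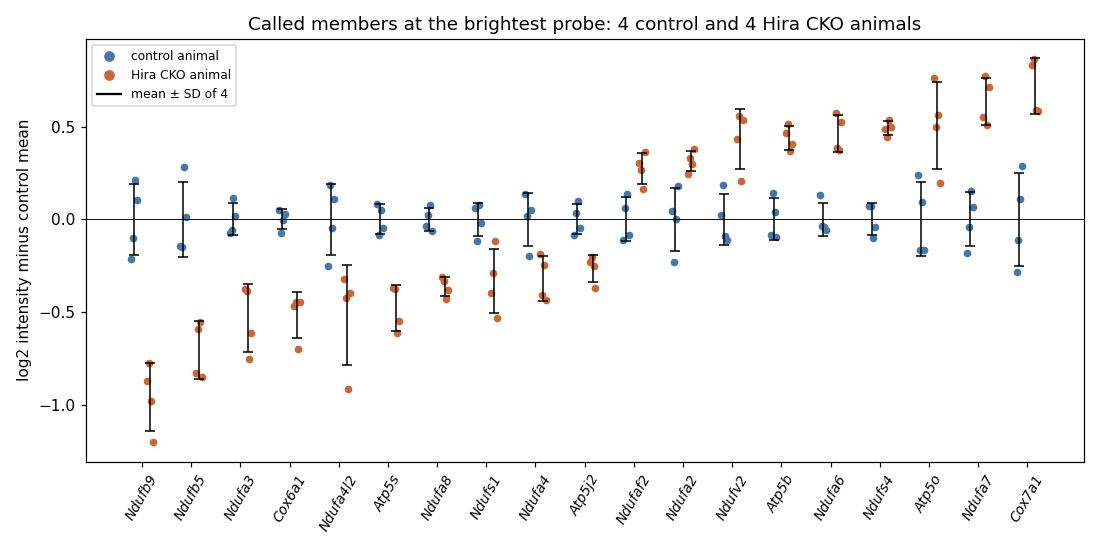
Log2 intensity of each animal minus the control mean, for the 19 genes called at the brightest probe, ordered from the largest fall to the largest rise; points are animals and bars are mean ± SD of 4. The groups are apart for 16 of the 19, and Ndufa4, Ndufs1 and Atp5o overlap.

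Taking the median over the genes of a complex in each animal, the groups overlapped for complexes I, II, III and V and for the assembly factors. For complex IV, with 17 genes, the animal medians relative to the control mean were −0.001, −0.03, 0.08 and 0.01 in controls and −0.08, −0.04, −0.07 and −0.05 in Hira CKO. These did not overlap, but the gap was narrow, from −0.03 for control 2 to −0.04 for Hira CKO 2. Their means were 0.015 (SD 0.045, n = 4) and −0.062 (SD 0.019, n = 4). The 17 genes include Ndufa4l2 (−0.50), Cox8c (−0.24), Cox6b2 (−0.18), Cox4i2 (−0.18) and Cox7b2 (0.01), all dim, at percentiles 20.6 to 41.5 of mean intensity. A median without them was not taken, so how far the separation rests on these dim probes was not tested. For complex V, with 11 genes, the animal medians were −0.09, −0.05, 0.10 and −0.05 in controls and 0.08, 0.13, 0.11 and 0.10 in Hira CKO. Control 3 reached the level of the Hira CKO animals there. For complex I, with 32 genes, they were 0.04, −0.07, 0.07 and −0.03 against 0.08, −0.04, 0.02 and −0.07, and the groups overlapped.

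**Figure D4:**
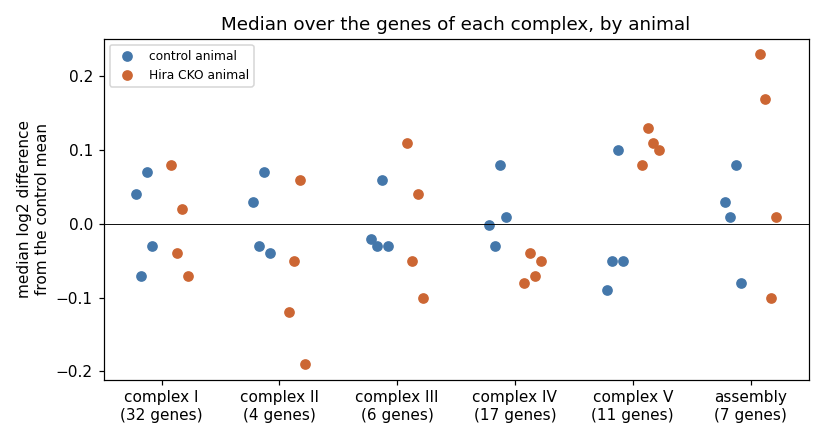
Median log2 difference from the control mean over the genes of each complex, 1 point per animal. Complex V medians of Hira CKO lie from 0.08 to 0.13 and complex IV medians from −0.08 to −0.04. The groups overlap in complexes I, II, III and V and for the assembly factors, and are just apart in complex IV. The complex IV median includes the dim genes Ndufa4l2, Cox8c, Cox6b2, Cox4i2 and Cox7b2.

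Of the 78 genes, 64 were matched to RefSeq start sites (GRCm38.p6), giving 69 windows of 250 bases upstream. Atp5a1, Cox4i1, Cox4i2, Cox4nb, Cox6a2, Cox6c, Cox8c, Ndufa2, Ndufa4l2, Ndufb9, Ndufs1, Sdhc, Uqcrc2 and Uqcrq were the genes not matched. Member windows held a median of 15 CG pairs, against 6 over all 32851 windows of the same length, and a median GC content of 56.4% against 52.4%. Motifs were searched as exact letters on both strands. The NRF1 core GCGCANGC, bound by a regulator of respiratory genes, was in 23.2% of member windows and 8.3% of all. The ETS core CCGGAAG was in 11.6% and 6.91%, the YY1 core AANATGGCG in 4.35% and 1.12%, and the half-site of the estrogen-related receptors TNAAGGTCA in 1.45% and 1.14%. The GC box GGGCGG was in 40.6% and 32.7%, and the CCAAT box in 43.5% and 33.8%. By call, the NRF1 core was in 1 of 9 windows of genes that rose, 4 of 7 windows of genes that fell and 11 of 53 windows of genes not called. Of the windows printed above, Cox6a1 held 26 CG pairs and 7 matches. Among them were 3 matches to the NRF1 core, starting 162, 160 and 117 bases before the start. Those at 162 and 160 are the opposite strands of a single capitalised stretch, so they mark the same site. Cox7a1 held 4 CG pairs and 2 CCAAT boxes, at 137 and 74 bases before the start, and Cox7a2 held 14 CG pairs and 1 GC box. Ndufs4 held 7 CG pairs and Ndufb5 13. A match is a description of letters, and binding was not measured.

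Genes that build, feed and regulate the respiratory chain were read from lists beside the members. Of 38 assembly factors outside the prefix rule, 8 rose and 4 fell, with a median of 0.15. Over all genes 11.0% were called higher and 10.2% lower, which is also the background for the other lists. Of the 8 rises, Cox11, a copper chaperone of complex IV, rose at its brighter probe (0.32, adjusted p = 0.0209) and fell at the other (−0.39, adjusted p = 0.0107). Sdhaf2, which helps attach the flavin to Sdha, was not called at its brighter probe (0.08) and fell at the other (−0.37, adjusted p = 0.0112). Uqcc3, a complex III factor, was not called at its brighter probe (0.18) and rose at the other (0.51, adjusted p = 0.0497). Bcs1l, which inserts the iron-sulphur protein into complex III, fell (−0.72, SE 0.086, limma adjusted p = 0.000437), as did Sco2, a copper chaperone of complex IV (−0.62, SE 0.11, adjusted p = 0.00479). Coa7 (0.66, SE 0.11, adjusted p = 0.00322) and Coa4 (0.57, SE 0.16, adjusted p = 0.0323), both linked to complex IV assembly, rose, the latter with a call lost in 6 of 8 leave-one-out fits. The rises of Coa3 (0.27), Coa5 (0.34) and Coa6 (0.36) were likewise lost in 6 of the 8 fits each. Timmdc1 rose at its brighter probe (0.41, adjusted p = 0.00893) but was not called at the other (0.07, adjusted p = 0.603). Of the falls, only that of Ecsit (−0.32) lost its call, in 1 fit. Among 6 genes for other routes of electron entry, 0 rose and 2 fell. These were Sqor, which oxidises sulphide (−0.88, SE 0.094, adjusted p = 0.000222), and Gpd2, the mitochondrial glycerol phosphate dehydrogenase (−0.42, SE 0.1, adjusted p = 0.0165, lost in 1 of the 8 fits). Of 13 coenzyme Q genes 2 rose and 2 fell. Coq10a, which binds coenzyme Q, read 62816, 58360, 55746 and 52012 in controls and 27656, 25554, 31147 and 29524 in Hira CKO (−1.02, SE 0.085, adjusted p = 5.87e-05), a wide separation. Coq7, a hydroxylase of the pathway, fell (−0.78, SE 0.091), while Coq2 (0.35, SE 0.078) and Coq8a (0.35, SE 0.11, lost in 6 of the 8 fits) rose. Of 13 tricarboxylic acid cycle genes 3 rose and 0 fell, with a median of 0.02. They were Idh2 (0.78, SE 0.18), Sucla2 (0.54, SE 0.09) and Ogdh (0.40, SE 0.086).

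Of 24 genes of mitochondrial biogenesis and mitochondrial DNA expression, 1 rose and 3 fell, with a median of 0.02. The largest change was in Ppargc1b, which encodes PGC-1beta, a coactivator of respiratory genes. It read 1667, 1704, 1889 and 1391 in controls and 509, 619, 549 and 484 in Hira CKO (−1.61, SE 0.12, limma adjusted p = 2.36e-05). The highest Hira CKO animal was below the lowest control by a wide margin. Lrpprc, which stabilises mitochondrial messenger RNA (−0.40), Mterf4 (−0.31) and Ssbp1, the mitochondrial single-strand binding protein (0.26), were called but lost their calls in 5, 7 and 6 of 8 leave-one-out fits. These counts read each gene at its brightest probe. Nrf1, whose protein binds the motif counted above, was not called at its brightest probe (0.01) but fell at 1 of its 2 others (−0.47, adjusted p = 0.00171, with −0.11 at the last). Gabpb1, a partner of the ETS factor GABPA, was −0.04 at its brighter probe and fell at the other (−0.40, adjusted p = 0.00765), and Ppara, a nuclear receptor for fatty acids, was 0.09 and fell at the other (−0.35, adjusted p = 0.0288). Of 18 genes of cristae, import and cardiolipin 4 rose and 1 fell, although the list's median was −0.13. Apoo (0.57) and Immt (0.42), both of the cristae junction complex, and Tomm22 (0.38) and Timm44 (0.31), both of protein import, rose, with calls of the latter pair lost in 2 and 5 of the 8 fits. Tomm70a fell (−0.23), a call lost in all 8. The 13 subunits encoded by mitochondrial DNA were not analysed here.

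**Figure D5:**
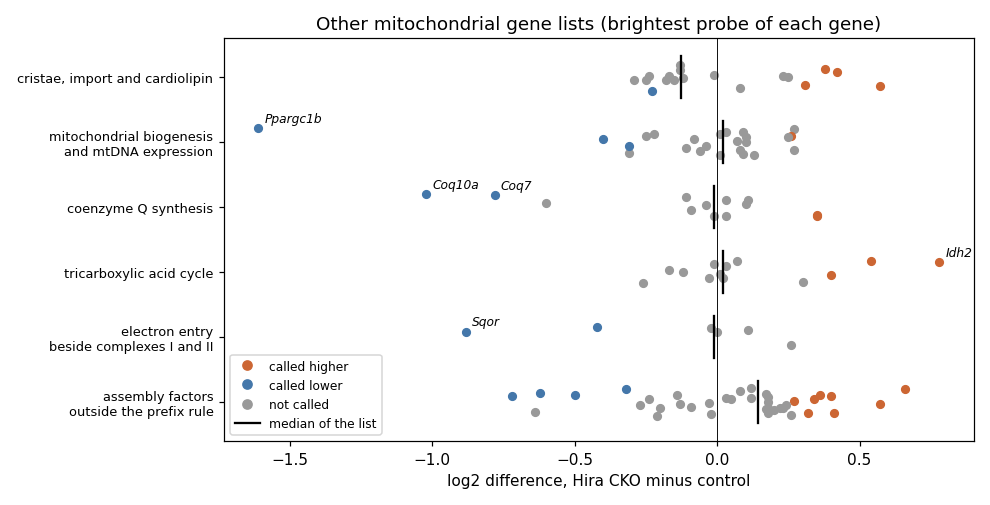
Log2 difference (Hira CKO minus control) of each gene at its brightest probe in 6 lists of related mitochondrial genes; colour marks calls and the vertical line is the list's median. Medians lie from −0.13 to 0.15, and the far points are Ppargc1b (−1.61), Coq10a (−1.02), Sqor (−0.88) and Idh2 (0.78).

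Markers of fibre type and of other cells moved between the same animals, and their part in the member values was not tested. Of 9 muscle fibre markers 0 rose and 3 fell (Acta1 −0.55, Ckm −0.28 and Ttn −0.22). The Acta1 call held in all 8 leave-one-out fits, while that of Ckm was lost in 6 and that of Ttn in all 8. The summed intensity of the 9 markers was 1792415 to 2037919 in controls and 1687920 to 1775725 in Hira CKO. Of 7 slow fibre markers 3 rose and 1 fell, with sums of 36623 to 45735 and 51464 to 57626. Without Casq2, a sum added after seeing the data, the other 6 overlapped, at 24134 to 27254 and 22935 to 32628. The rises were Atp2a2 (1.27), Casq2 (1.03) and Sln (0.99), and the fall was Tpm3 (−0.37, lost in 6 of the 8 fits). The other probes of Atp2a2 were not called, at 0.21 (adjusted p = 0.272) and 0.47 (adjusted p = 0.0686). The slow troponins Tnni1 (0.07), Tnnt1 (0.55) and Tnnc1 (−0.15) were not called. Hira CKO 3 was the highest animal in each, at 4509, 5002 and 6587. Of 7 fast fibre markers 1 rose and 0 fell, with overlapping sums of 1329583 to 1474023 and 1317299 to 1434587. The rise was Casq1 (0.25), a call lost in 7 of the 8 fits, and its other probe was not called (−0.23, adjusted p = 0.0874). Of 10 endothelial markers 1 rose and 5 fell, with sums of 62164 to 77051 against 46694 to 52912. Falls of Egfl7 (−0.69), Kdr (−0.60) and Emcn (−0.44) and the rise of Eng (0.54) held in all 8 fits. Those of Pecam1 (−0.36) and Esam (−0.36) were lost in 6 of the 8 fits each. The other Pecam1 probes were not called, at −0.21 (adjusted p = 0.253) and −0.22 (adjusted p = 0.157). Among smooth muscle and pericyte markers, 2 of 7 fell and 0 rose, with sums of 42995 to 54931 against 34667 to 41192. The falls were Rgs5 (−1.11) and Smtn (−0.41, lost in 2 of the 8 fits). Most of each sum came from Smtn, at 18108 to 21687 against 12411 to 16543, and from Acta2, which overlapped and was not called (−0.32). Of 8 lymphocyte markers 3 rose and 0 fell, and the sums overlapped, at 2556 to 3880 and 3759 to 5365. The rise of Cd3e (0.48) held in all 8 fits, while Cd4 (0.34) lost its call in 2 and Cd79b (0.29) in 7. Cd79a (0.72, adjusted p = 0.156) was not called and its groups overlapped, although it was the largest part of each sum. Of 7 macrophage markers 1 rose and 1 fell, with overlapping sums of 5347 to 8284 and 5512 to 7432. Cx3cr1, a chemokine receptor, read 201, 241, 222 and 205 in controls and 56, 57, 60 and 69 in Hira CKO (−1.61, adjusted p = 4.84e-06), a dim probe with no overlap and a call that held in all 8 fits, and Itgam rose (0.40, lost in 6 of the 8 fits). Of 6 satellite cell markers 1 rose, Megf10 (0.53, adjusted p = 0.00642), and 0 fell, with overlapping sums of 7308 to 9261 and 6543 to 9871. None of the measured slow fibre and endothelial markers lay at or below the 30th percentile of the array, against 2 each of the smooth muscle and pericyte and the lymphocyte markers. The 9 adipocyte and 8 fibroblast markers had no call, and their sums overlapped. Of 6 brown adipocyte markers, 1 rose and 1 fell. The rise was Ucp1, at 102, 96, 86 and 101 in controls and 211, 160, 303 and 186 in Hira CKO, below the 30th percentile of the array, and the list includes Cox8b, a member.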

How the data were processed

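Labelled Cy5 RNA of 8 animals was read on 24 1-colour arrays. The deposited values are linear intensities, normalised by the authors and background-subtracted, as judged from the table. The highest value was 439069.7, array medians lay between 431.5 and 433.5, and 50 of 634152 values were at or below 0. Scanner, software and background method are not given in the sources used here. There are no detection calls. The platform annotation gave 1 symbol to 20377 probes and none to 6046. Symbols of other genes were updated with the RefSeq table of GRCm38.p6, which was used for names and upstream windows.

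Values below 0 were set to 0, 16 was added, log2 was taken, and the 3 arrays of an animal were averaged. The fit of Hira CKO against control used lmFit and eBayes of limma 3.58.1 (R 4.3.3), adjusted by Benjamini-Hochberg over 26423 probes. Fold changes of dim probes are understated by the added 16. Intensities printed for an animal are means of its 3 arrays, and overlap of groups was judged on them. A gene was read at the probe with the highest mean. The fitting code was also run on simulated data with far fewer changed probes than were called here, so that run does not bear on the calls. Figures used matplotlib 3.10.9. The number of animals and arrays limits the precision.

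The members, the gene lists, the tests and the alternatives were chosen with earlier results of these data known, and the split of complex I by arm was made from textbook structure after the values were seen. Named genes are all called members, isoform sets, complex II, the brightest probe of each complex, genes whose probes were called in part, and up to 4 called genes of each other list. Further genes in lists are named where they complete a count, chosen after their values were seen. Alternatives were other pseudocounts, normalisations, dim probe filters, array and animal treatments, variance models, thresholds, tests, probe choices and member rules.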

Additional observations from a re-analysis of the deposited data

Results flagged for a closer look

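In each group of 4 animals, the distance of the highest or the lowest animal from its nearest neighbour was set against the range of the group on the log2 scale, at the brightest probe of each member (Dixon's ratio at its 95% critical value). Of 156 groups checked, 11 held such an animal, and chance alone gives about 1 in 20 groups. Hira CKO 3 and Hira CKO 4 supplied 3 each, control 1 and control 2 supplied 2 each, and Hira CKO 2 supplied 1.

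Among complex I genes, control 1 was high for Ndufv1, at 83258 beside 67579 to 70009 in the other controls, and for Ndufa6, at 91281 beside 80205 to 81318. Ndufa6 rose in Hira CKO all the same. In complex IV, Hira CKO 3 was low for Cox6a1, at 11954 beside 14046 to 14261, for Ndufa4l2, at 154 beside 216 to 232, and for Cox5a, at 229333 beside 244168 to 247197. The call of Ndufa4l2 was among those lost when Hira CKO 3 was left out, and that of Cox6a1 was kept. Hira CKO 4 was low for Cox5b, at 1892 beside 2373 to 2419, and for Cox6c, at 694 beside 821 to 844, while control 2 was high for Cox6c, at 765 beside 700 to 705. Cox7a2l had a low animal in both groups, control 2 at 551 beside 730 to 762 and Hira CKO 4 at 443 beside 913 to 1046, which gave this supercomplex factor the largest SE of the genes (0.24). In complex V, Hira CKO 2 was low for Atp5c1, at 763 beside 823 to 835.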

How the results depend on the processing

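Of 985 single gene values recomputed under an alternative, 880 kept their direction and side of the threshold, 85 lost a call, 14 gained one, 4 turned and 2 moved without a test. The 4 that turned came from the choice of probe. Cox7a2 was 0.57 as the mean of its probes and 1.30 at the probe with the smallest p, and Ndufs4 was −0.55 and −1.60. Their probes disagree, as given above.

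Over the 8 fits that left out 1 animal, member genes called higher ranged from 6 to 9 and lower from 6 to 9, complex I calls from 8 to 9, complex II and complex III from 0 to 1 each, complex IV from 2 to 4, complex V from 1 to 3 and assembly factors from 1 to 2. Probes called higher ranged from 7 to 11 and lower from 7 to 10. With all 24 arrays and the animal as a random block (correlation 0.401), 14 genes were higher and 16 lower, complex II had 1 call, complex III 1 and complex IV 9, and 17 probes were higher and 18 lower. With the array repeat added as a term, 14 genes were higher, complex II had 1 call, complex III 1 and complex IV 8, and 17 probes were higher and 17 lower. With only array repeat 1, 6 genes were lower, with 2 calls in complex IV, 1 in complex V and 1 among assembly factors, and 7 probes were lower. With only repeat 2, 5 genes were higher and 6 lower, with 2 calls in complex IV, 1 in complex V and 1 among assembly factors, and 7 probes were higher and 7 lower. With only repeat 3 and with the mean of a gene's probes, 1 assembly factor was called. A per-probe test with unequal variances called 5 genes higher and 6 lower, 6 in complex I, 2 in complex IV and 1 assembly factor, and 6 probes higher and 7 lower. At a threshold of 0.01, 5 genes were higher and 6 lower, with 2 calls in complex IV, 1 in complex V and 1 assembly factor, and 6 probes were higher and 7 lower. At 0.10, complexes II and III had 1 call each. Complex II also had 1 call with a pseudocount of 50 and with trended, robust variances. Apart from fits with fewer arrays or another threshold, the cause of these moves was not tested.

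Animal numbers were shared by the groups. Animals of the same number deviated together only weakly (correlations of 0.296, 0.093, −0.0643 and 0.0673), and the main fit did not pair them. These values cannot exclude a pairing, as each rests on a single pair of animals. With the number as a replicate block, 8 genes were higher and 8 lower, with 10 calls in complex I, 3 in complex IV, 2 in complex V and 1 among assembly factors. Without members above the 99th percentile of intensity, an alternative added after seeing the data, 6 genes were lower and complex I had 6 calls. Leaving out Cox4nb, also added then, changed no count of genes called. Its dimmer probe is 1 of the 11 probes called higher.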
